A study of Mus musculus with 9 samples.

Results

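The ADAM, ADAMTS and ADAMTS-like genes of the mouse were followed in RNA from single capillaries and the cells around them at the ossification front (OF) of the femur, where cartilage gives way to new bone below the growth plate. Members were the protein-coding genes whose symbol starts with Adam, Adamts or Adamtsl followed by a number, with Adamts2 and Adamts14 left out. The rule found 55 genes among the 39179 listed in the count tables, of which 33 were ADAM, 17 were ADAMTS and 5 were ADAMTS-like genes. The study compared juvenile mice aged 4 weeks (n = 5 libraries) with adult mice aged 12 weeks (n = 4 libraries). The labels name no treatment, and all mice were reporter mice of the Tg(TIE2GFP)287Sato/J strain, of C57BL/6 origin, in which the Tie2 promoter drives GFP in endothelial cells. Green vessels were cut by laser microdissection from unfixed frozen sections, and the many pieces cut for a sample were pooled into its library, so that each library holds RNA of several cell types. Both sexes were analysed together, and the labels do not say from which mouse a library came, so the p-values measure the spread between these libraries.

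ADAM proteins are membrane-anchored metalloproteases that cut the outer part of other membrane proteins, such as growth factors, cytokine receptors and adhesion molecules, and so release them from the cell. ADAMTS proteins are secreted, carry thrombospondin repeats and cut components of the extracellular matrix (ECM), among them the cartilage proteoglycans aggrecan and versican, procollagens and von Willebrand factor. ADAMTS-like proteins share the repeats but lack the protease domain and bind to fibrillin microfibrils. TIMP proteins inhibit the proteases, proprotein convertases activate them, and at the growth plate both families take part in the removal of cartilage matrix and the release of signals as bone replaces it.

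Of the 55 members, 36 have a zinc-binding catalytic site by the search described below. It is shown for those on which the results turn, because its fixed asparagine occurs in most of the proteoglycan-cutting ADAMTS genes. Each line holds the coding strand from 5′ to 3′, read from the longest coding transcript of the gene in GENCODE M21 (GRCm38), with 6 flanking bases on either side. Capitals mark the codons of the fixed residues, which are a histidine and a glutamate, a histidine, a glycine or asparagine, and a final histidine.
Adamts9: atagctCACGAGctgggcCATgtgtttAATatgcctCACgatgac
Adamts1: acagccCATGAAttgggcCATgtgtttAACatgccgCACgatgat
Adamts4: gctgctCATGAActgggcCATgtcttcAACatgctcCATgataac
Adamts5: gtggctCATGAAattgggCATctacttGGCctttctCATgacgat
Adamts10: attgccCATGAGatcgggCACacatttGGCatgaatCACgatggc
Adamts17: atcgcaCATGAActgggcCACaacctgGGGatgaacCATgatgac
Adam12: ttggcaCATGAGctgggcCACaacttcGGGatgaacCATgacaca
Adam10: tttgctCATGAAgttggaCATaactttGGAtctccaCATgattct

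The site without its flanks is 33 bases long. In Adam12 it lay in exon 11 of 23, on the minus strand at chr7:133961158-133961190. In Adamts9 it was split between exons 8 and 9 of 40, on the minus strand at chr6:92905285-92908493, a span that includes the intron. The sites of Adamts1 (minus strand, chr16:85799191-85799545) and Adamts4 (plus strand, chr1:171253210-171253915) were split between exons 3 and 4 of 9 in both genes. In Adamts5 the split fell between exons 2 and 3 of 8 (minus strand, chr16:85878015-85887826), in Adamts10 between exons 9 and 10 of 25 (plus strand, chr17:33538157-33538279), and in Adamts17 between exons 8 and 9 of 23 (plus strand, chr7:66968898-67002473). An exon junction ran through the site in 16 of the 16 ADAMTS genes that have it. Among the 20 ADAM genes with the site, Adam10 was the exception to a site held in a single exon, with its bases divided between exons 9 and 10 of 16 (plus strand, chr9:70754296-70761585).

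The search was made in the reading frame for a histidine codon (CAT or CAC) and a glutamate codon (GAA or GAG), a second histidine codon 2 codons further on, a glycine codon (GGN) or an asparagine codon (AAT or AAC) after 2 more, and a last histidine codon after 2 more. It found the site in 36 of the 55 members (65.5%) and in 73 of 21637 protein-coding genes (0.337%). The form with glycine was present in 31 members and in 68 genes in all (0.314%). The form with asparagine was found in 5 genes (0.0231%), all of them members, namely Adamts1, Adamts4, Adamts9, Adamts15 and Adamts20. That form was added to the search after the sequences had been seen, so its presence in members is no independent result. Adamts5, the other main aggrecan-cutting member, had the glycine form. The motif was not found in Adam11, Adam22, Adam23, Adamts8, the 5 ADAMTS-like genes or 10 of the 21 ADAM genes of the germ line. A site that differs from both forms at a fixed residue would be missed by this search. Across families, the sites of Adam12 and Adamts17 were equal at 30 of 33 bases (90.9%), and so were those of Adam8 and Adamts17. Within the ADAMTS genes, those of Adamts4 and Adamts15 were equal at 30 and those of Adamts1 and Adamts9 at 28 (84.8%). Over all pairs of tested members with the site, equality ran from 48.5% (Adam17 and Adamts9) to 90.9%. The search required the fixed residues, so part of this equality was set in advance.

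Total counts ranged from 4856833 to 7398483 in juvenile and from 5821596 to 8077362 in adult libraries, so that 3 counts, taken as the floor of detection, corresponded to 0.371 to 0.618 CPM, the count scaled for sequencing depth. The floor covers counting error only, since PCR copies of a molecule are not independent reads. The share of the 10 most abundant genes was 24.2% to 28.5% in juvenile and 14.9% to 19.3% in adult libraries. None of the 36 pairs of libraries held copies. Juvenile replicates 4 and 5 stood apart in Xist, the RNA of the inactive X chromosome, with 11 and 1 counts where the other 7 libraries had at least 2965, and in Y-linked genes, with 2118 and 1823 counts against 293 to 771. Both lay in the juvenile group and no adult library was like them, so sex is partly confounded with age. Numbers of calls and the fold changes of the members called are given with and without juvenile replicates 4 and 5. Most other values of single genes rest on all libraries. Osteoblast markers (11 of 11 tested) summed to 165733 to 193922 CPM in juvenile and 70024 to 97587 CPM in adult libraries, and endothelial markers (10 of 10 tested) to 563 to 961 and 751 to 931 CPM. Neutrophil and erythroid markers were higher in adult libraries. The summed level of 8 neutrophil genes was 95.7 to 4632 CPM there against 5.78 to 58.3 CPM in juvenile libraries. That of 8 erythroid genes was 4799 to 40775 CPM against 393 to 2470 CPM. The ages overlapped for 8 B lineage genes, with sums of 22.5 to 253 CPM in adult and 34.2 to 66.1 CPM in juvenile libraries. The summed level of 8 macrophage genes was 1136 to 1963 CPM in adult and 442 to 799.6 CPM in juvenile libraries, and none of these markers was at 0 throughout. Fewer cells of a type and less RNA per cell cannot be told apart in these bulk samples.

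Counts on 25 of the 55 members passed the filter on low counts, out of 13418 genes tested, and 19 of the 25 had counts in every library. The remaining 30 members were not tested. Of these, 16 had no count in any library, which allows at most 3 counts in each. They were the germ-line genes Adam1b, Adam2, Adam6a, Adam6b, Adam7, Adam18, Adam20, Adam21, Adam24, Adam25, Adam26a, Adam26b, Adam29, Adam30 and Adam39, and the ADAMTS gene Adamts19. The other 14 had at most 32 counts in a library, and 10 of them passed 3 counts in no more than 1 library. Adam32 reached 32 counts in adult replicate 2, Adam33 had 26 in adult replicate 4, and Adamts8 had 18 and Adamts16 had 12 in juvenile replicate 5 alone. Adam5 had 13 counts in juvenile replicate 4, Adam1a at most 13, Adam3 at most 8, Adamts20 and Adamtsl3 at most 3 and Adam34 a single count. Adam11 (up to 29 counts), Adamts13 (up to 27), Adamts6 (up to 21) and Adamtsl1 (up to 19) had counts in libraries of both ages.

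To compare members with each other, levels were expressed as CPM per kilobase of exon. Adam10, a sheddase of Notch, cadherins and ephrins, had the highest level in both ages, with 25.6 ± 6.36 CPM per kilobase (SD, n = 5) at 4 weeks and 29.1 ± 4.50 (SD, n = 4) at 12 weeks. Adam12, which cuts ligands of the EGF receptor and IGF-binding proteins, followed with 17.9 ± 2.57 (SD, n = 5) and 9.30 ± 2.90 (SD, n = 4) CPM per kilobase. Adam15 had 16.4 ± 6.27 (SD, n = 5) and 8.53 ± 4.14 (SD, n = 4), and Adamts10, the highest of the secreted members, 13.5 ± 2.90 (SD, n = 5) and 7.03 ± 2.38 (SD, n = 4) CPM per kilobase. Adam17, the TNF-alpha converting enzyme, was the fifth over all libraries, with 9.38 ± 3.64 (SD, n = 5) and 9.21 ± 4.30 (SD, n = 4) CPM per kilobase. In descending order of the mean over all 9 libraries, Adamts9, Adam19, Adam9, Adamts5, Adamts4, Adamts1, Adamts7, Adamtsl2, Adamts3, Adamtsl4, Adamts15, Adamts18 and Adamts17 followed, from 7.96 down to 1.19 CPM per kilobase. Adam8, Adamtsl5, Adam4, Adamts12, Adam22, Adam23 and Adam28 had means under that of Adamts17, from 0.974 down to 0.175 CPM per kilobase. The ranges of neighbours in this order overlapped in every case, so the order of adjacent members is not settled by these libraries.

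**Figure D1:**
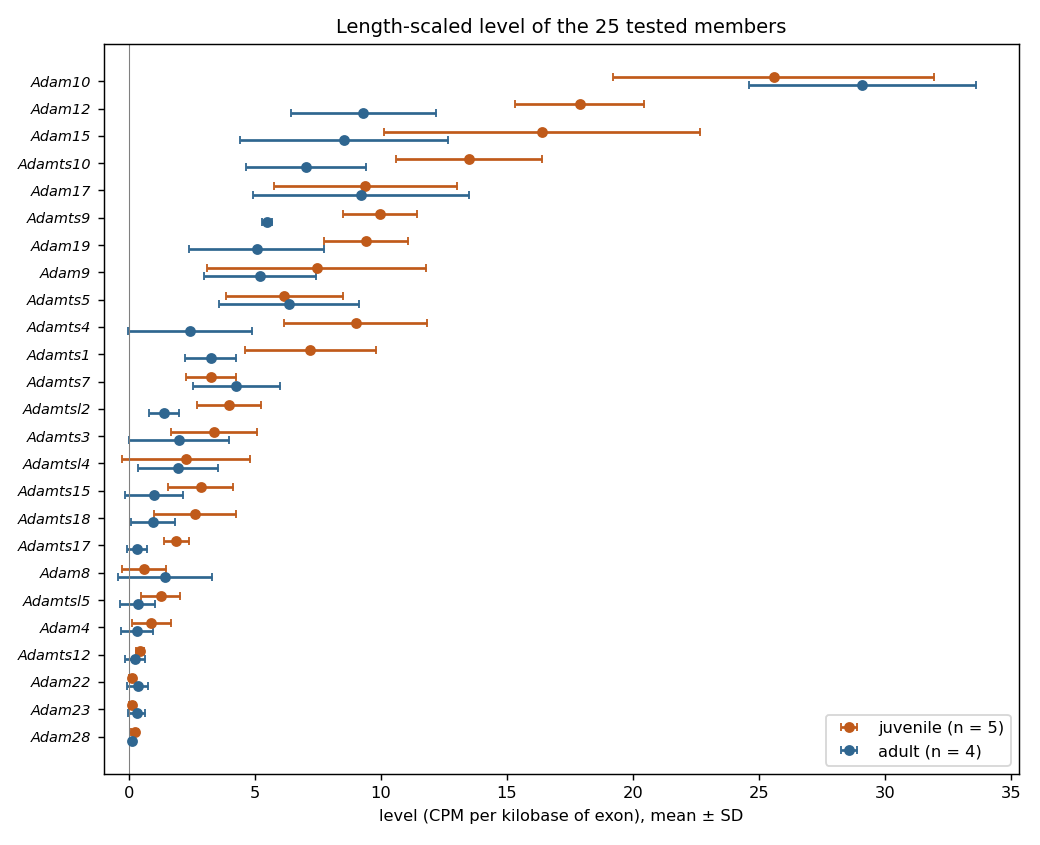
Length-scaled level of the 25 tested members in CPM per kilobase of exon, with points for the mean and bars for the SD of juvenile (n = 5) and adult (n = 4) libraries, in descending order of the mean over all libraries. Adam10 lies at the top in both ages (25.6 and 29.1), while Adam12, Adam15 and Adamts10 have lower means in adult than in juvenile libraries.

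The share of the family's summed length-scaled level that came from Adam10 was 16.4 ± 4.07% (SD, n = 5) at 4 weeks and 27.4 ± 5.03% (SD, n = 4) at 12 weeks. It ran from 9.44% to 19.6% in juvenile and from 22.8% to 33.0% in adult libraries, and the ages did not overlap. The level of Adam10 itself did overlap between ages (log2 fold change -0.19, adjusted p = 0.752 in edgeR). The summed level of the family was 157 ± 11.3 (SD, n = 5) and 107 ± 10.7 (SD, n = 4) CPM per kilobase. The share thus shows no rise of Adam10 itself. Adam12 made up 11.3 ± 1.01% (SD, n = 5) and 8.60 ± 2.08% (SD, n = 4). Summed over all members, without length scaling, counts on the family were 1212, 1053, 1002, 1063 and 1199 CPM in juvenile replicates 1 to 5 and 863, 827, 670 and 888 CPM in adult replicates 1 to 4. Every juvenile library lay above every adult library in this sum.

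The ages were compared to ask how the vascular niche of the OF changes once active bone growth has ended. Of the 25 tested members, 2 were higher in juvenile libraries and none in adult libraries at an adjusted p under 0.05 (edgeR's quasi-likelihood test, Benjamini-Hochberg adjustment over all genes). The members called were Adamts9 and Adam12. Over all genes tested, 1.99% were called higher in juvenile and 1.89% higher in adult libraries, 3.88% in either direction. At an unadjusted p under 0.05, 9 members were higher in juvenile and 0 in adult libraries, beside 8.54% and 8.76% of all genes. All 5 juvenile libraries lay above all 4 adult libraries for 4 members (Adamts9, Adam12, Adamts1 and Adamts17), beside 5.07% of all genes, and the reverse held for 0 members, beside 4.08%. The log2 fold change of juvenile over adult was above 0 for 19 of the 25 members, beside 49.5% of all genes, and its median was 0.89 over the members and -0.01 over all genes. Normalised counts, given for single members in the following, are counts corrected for the depth and composition of the library by TMM scaling, and fold changes come from the fitted model. The filter looks at both ages together, so a member with few counts could pass it through the age in which it was high.

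With DESeq2, 7 members were called higher in juvenile and none in adult libraries, beside 4.05% and 4.32% of all genes in that fit. Without juvenile replicates 4 and 5, in the 7 libraries where Xist counts exceeded those of Y-linked genes, no member passed the threshold of edgeR's test in either direction, beside 0.303% of all genes called higher in juvenile and 0.223% higher in adult libraries. At an unadjusted p under 0.05 in these libraries, 8 of 27 members were higher in juvenile and 0 in adult libraries, beside 5.63% and 5.96% of all genes. Members without overlap in either direction numbered 4 in all 9 libraries (9.15% of all genes), 4 when counts were scaled with DESeq2 size factors (9.17%) and 6 without juvenile replicates 4 and 5 (13.2%). The juvenile libraries had higher summed counts of osteoblast markers and lower ones of neutrophil, erythroid and macrophage markers than the adult libraries (the CPM values given above). Of the 11 osteoblast markers, 5 were called higher in juvenile and 2 higher in adult libraries, and their length-scaled sum was 34904 ± 2561 (SD, n = 5) against 27307 ± 9140 (SD, n = 4) CPM per kilobase. These lists of markers moved with age, and the part of any of them in the differences of the members was not tested.

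**Figure D2:**
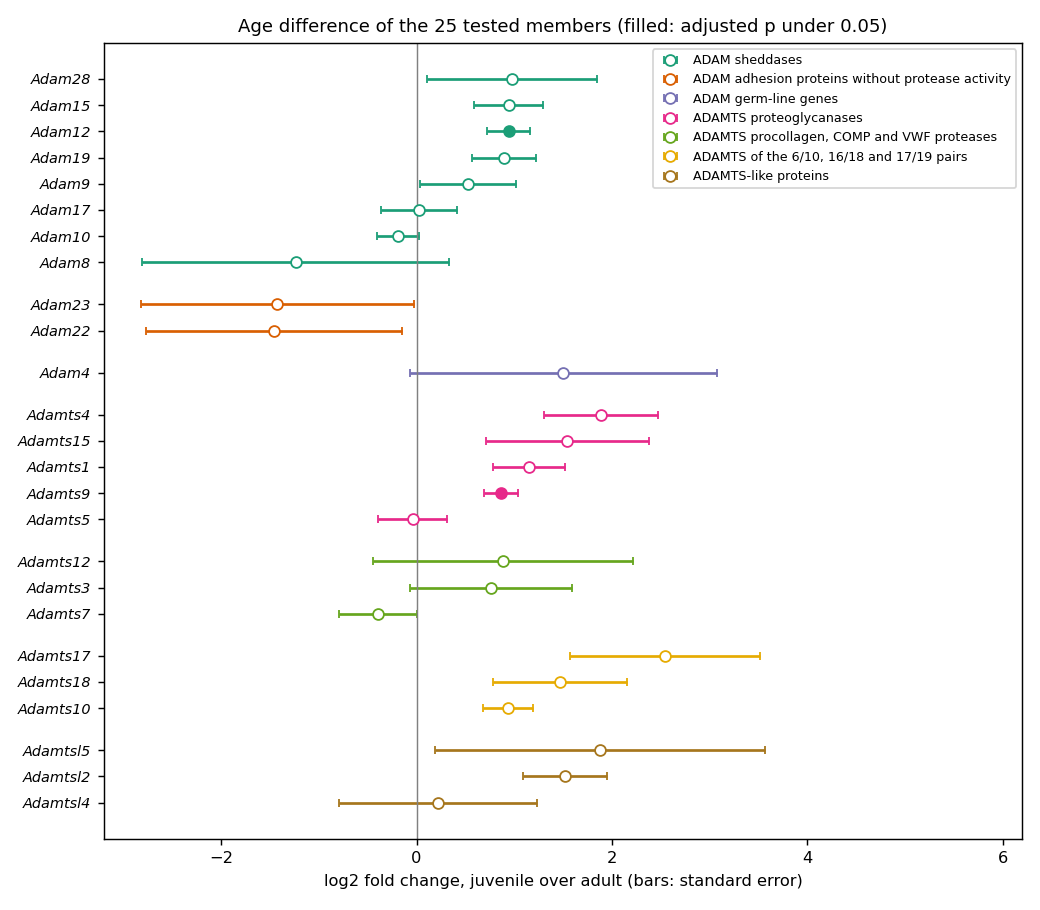
Log2 fold change of juvenile over adult for the 25 tested members, grouped and coloured by role, with bars for the standard error and filled points for members past the threshold of 0.05 on the adjusted p (edgeR's quasi-likelihood test). Filled points are Adamts9 (0.86) and Adam12 (0.94), and 19 of the 25 points lie to the right of 0.

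Among the membrane sheddases, 8 of 9 members were tested, 1 was called (higher in juvenile), and 3 were higher in juvenile libraries at an unadjusted p under 0.05, with a median log2 fold change of 0.71 over the 8. Adam12 (ENSMUSG00000054555, minus strand of chromosome 7, 133883199 to 134232146) is expressed in bone and muscle and in fusing cells. It had normalised counts of 1186, 1191, 1014, 1080.4 and 1461 in juvenile replicates 1 to 5, and of 897, 531, 465 and 576 in adult replicates 1 to 4. Each juvenile library was above each adult library, and adult replicate 1 was nearest to the juvenile range. The means of 1186 ± 170.5 (SD, n = 5) and 617 ± 192 (SD, n = 4) differed by a log2 fold change of 0.94 (SE, the standard error, 0.22, adjusted p = 0.0311 in edgeR's quasi-likelihood test). When any 1 library was removed, that of Adam12 was 0.81 to 1.16 (adjusted p from 0.00791 to 0.0887, edgeR), and it remained past the threshold only without adult replicate 1. In the 7 libraries it was 0.87 (adjusted p = 0.181, edgeR).

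Adam19, the closest relative of Adam12 among the sheddases and known for cutting neuregulins, had normalised counts of 408, 484, 435, 297 and 474 in juvenile and of 127, 398, 178 and 201 in adult libraries. Adult replicate 2 lay within the juvenile range, and the log2 fold change was 0.89 (SE 0.33, adjusted p = 0.161 in edgeR's quasi-likelihood test). When any 1 library was removed, that of Adam19 was 0.68 to 1.29 (adjusted p from 0.0251 to 0.295, edgeR). Of these fits, only the one without adult replicate 2 passed the threshold. Adam15, a sheddase with an integrin-binding sequence that is present on endothelial cells, had 977, 761, 466, 371 and 587 normalised counts in juvenile and 559, 299, 190.2 and 268 in adult libraries. Here adult replicate 1 overlapped the juvenile libraries. The log2 fold change of Adam15 was 0.94 (SE 0.35, adjusted p = 0.169 in edgeR). With any 1 library removed it was 0.73 to 1.31 (adjusted p from 0.0494 to 0.336, edgeR). It passed the threshold only without adult replicate 1.

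The most abundant sheddase, Adam10, had normalised counts of 485, 772, 765, 933 and 988 in juvenile and of 1077, 811, 934 and 767 in adult libraries. The ages overlapped over most of their range, with a log2 fold change of -0.19 (SE 0.22, adjusted p = 0.752 in edgeR). Adam17 spread widely within each age, with 571, 145, 469, 496 and 424 normalised counts in juvenile and 395, 363, 217 and 679 in adult libraries. Its log2 fold change was 0.02 (SE 0.39, adjusted p = 0.988 in edgeR), and its sign changed with the library left out. Adam9, which cuts several ligands and receptors, had 192 ± 112 (SD, n = 5) and 134 ± 57.3 (SD, n = 4) normalised counts and a log2 fold change of 0.53. Adam8, a sheddase of myeloid cells and osteoclasts, had 0 to 61.3 normalised counts in juvenile and 0 to 115 in adult libraries. Adam28, known from lymphocytes and epithelia, had at most 24.7 normalised counts in a library. Adam33, the remaining member of the group, was removed by the filter. Exons of other genes overlap those of Adam15 (4731419I09Rik, 1263 bases), Adam19 (Gm16033, 587 bases, and Gm16034, 480 bases), Adam17 (Iah1, 311 bases) and Adam8 (Gm16201, 46 bases) on the opposite strand.

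Of the proteoglycan-cutting ADAMTS genes, 5 of 7 were tested, 1 was called (higher in juvenile), and 3 were higher in juvenile libraries at an unadjusted p under 0.05, with a median log2 fold change of 1.15 over the 5. Adamts9 (ENSMUSG00000030022, minus strand of chromosome 6, 92772699 to 92943492), a versican-cutting protease, had normalised counts of 891, 1014, 723, 1003 and 1071 in juvenile replicates 1 to 5. In adult replicates 1 to 4 it had 515, 491, 524 and 537. The adult libraries lay close together, and the lowest juvenile library, replicate 3, was above all of them. Adamts9 averaged 940.1 ± 138 (SD, n = 5) at 4 weeks and 517 ± 19.6 (SD, n = 4) at 12 weeks, with a log2 fold change of 0.86 (SE 0.18, adjusted p = 0.0173 in edgeR's quasi-likelihood test). When any 1 library was removed it was 0.81 to 0.94 (adjusted p from 0.0206 to 0.0508, edgeR), and it missed the threshold in 1 of these 9 fits, the one without juvenile replicate 5. In the 7 libraries it was 0.76 (adjusted p = 0.148, edgeR). Exons of A730049H05Rik and Gm15737 overlap those of Adamts9 by 1381 and 424 bases on the opposite strand, and 126 to 189 counts per library fell on A730049H05Rik. The strand setting of the counting is not given in the sources used here, so reads of members and of genes on the opposite strand cannot be told apart where exons overlap.

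Adamts1, an early-described member that cuts aggrecan and versican and is known to limit vessel growth, had normalised counts of 184, 337, 178, 167 and 331 in juvenile and of 90.7, 158, 96.3 and 85.7 in adult libraries. The ages did not overlap, although adult replicate 2 came close to juvenile replicate 4. It averaged 239.6 ± 86.7 (SD, n = 5) at 4 weeks and 108 ± 34.0 (SD, n = 4) at 12 weeks, and the log2 fold change of 1.15 did not pass the threshold (SE 0.37, adjusted p = 0.106 in edgeR's quasi-likelihood test). Adamts4, an aggrecanase with the asparagine form of the site, had 218, 279, 341, 156 and 363 normalised counts in juvenile and 58.8, 19.9, 182 and 31.5 in adult libraries. Adult replicate 3 overlapped juvenile replicate 4. The log2 fold change of Adamts4 was 1.89 (SE 0.58, adjusted p = 0.0963 in edgeR). With any 1 library removed it was 1.56 to 2.85 (adjusted p from 0.0133 to 0.207, edgeR). Of these fits, only the one without adult replicate 3 passed the threshold. Adamts5, the aggrecanase with the glycine form, had 418 ± 157 (SD, n = 5) and 429.7 ± 189 (SD, n = 4) normalised counts and a log2 fold change of -0.04 (SE 0.35, adjusted p = 0.979 in edgeR), the sign of which changed with the library left out. Adamts15, which cuts versican, had 88.6 to 314 normalised counts in juvenile libraries and 1.45, 172, 31.8 and 49.5 in adult libraries, with a log2 fold change of 1.54 (adjusted p = 0.377, edgeR) that was 2.73 without adult replicate 2 and 1.13 without adult replicate 1. Adamts8 and Adamts20 were not tested.

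**Figure D3:**
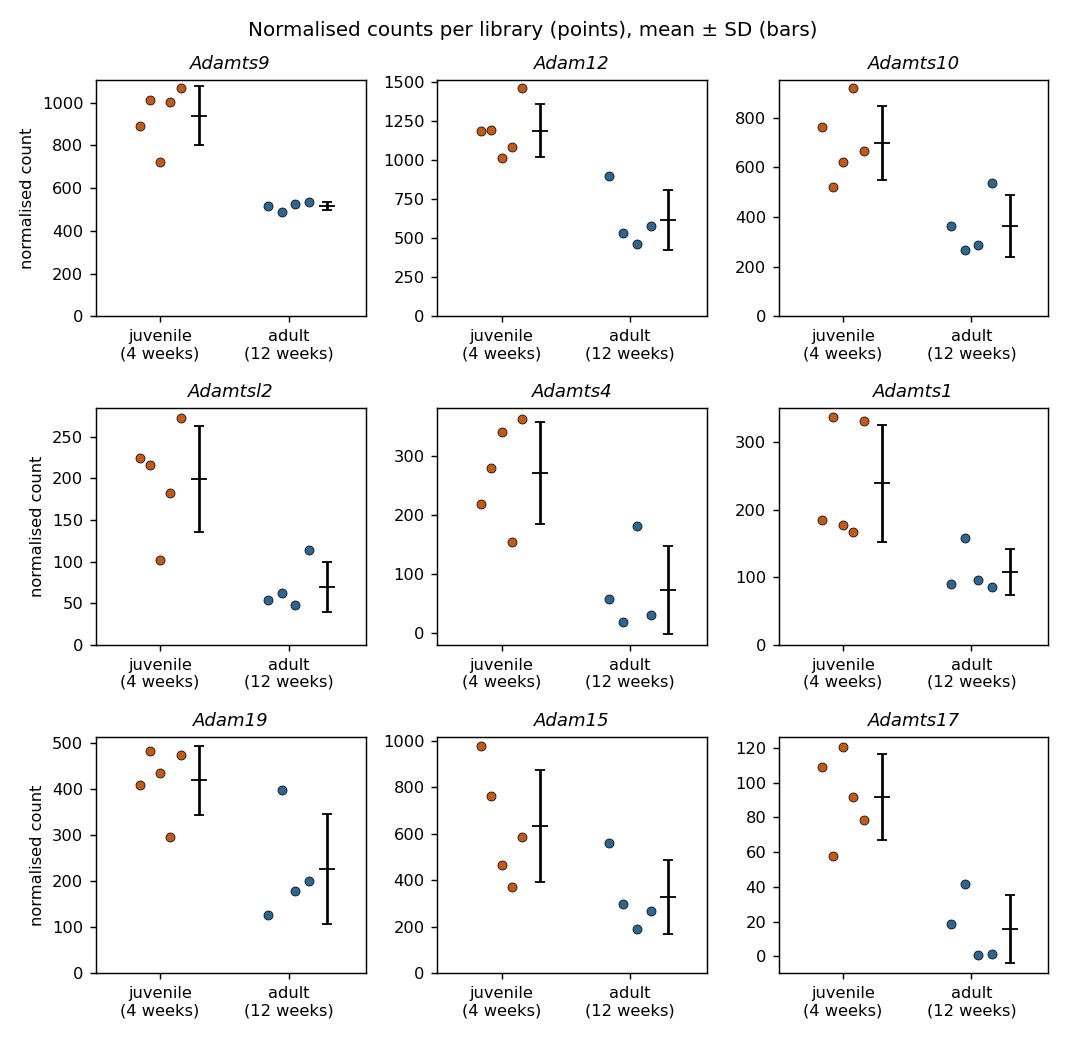
Normalised counts of the 9 members with an unadjusted p under 0.05, one point per library, with the mean and SD beside each age (juvenile, n = 5, and adult, n = 4) and an axis of its own for each gene. The ages do not overlap for Adamts9, Adam12, Adamts1 and Adamts17, while 1 adult library reaches the juvenile range in each of the other 5 panels.

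Of the 6 genes that form the pairs Adamts6 and Adamts10, Adamts16 and Adamts18, and Adamts17 and Adamts19, 3 were tested, 0 were called in either direction, and 2 had an unadjusted p under 0.05. ADAMTS10 and ADAMTS17 act on fibrillin microfibrils, and mutations of either cause a form of Weill-Marchesani syndrome, which includes short stature. Adamts10 (ENSMUSG00000024299) had normalised counts of 761, 522, 622, 919 and 668 in juvenile and of 363, 269, 287 and 539 in adult libraries. Adult replicate 4 was just above juvenile replicate 2. The log2 fold change was 0.94 (SE 0.26, adjusted p = 0.0625 in edgeR's quasi-likelihood test), and Adamts10 passed the threshold with DESeq2. With any 1 library removed it was 0.80 to 1.17 (adjusted p from 0.0327 to 0.162, edgeR). Of these fits, only the one without adult replicate 4 passed. Adamts17 (ENSMUSG00000058145) had 109, 57.9, 120.2, 91.9 and 78.5 normalised counts in juvenile and 18.9, 41.9, 0.777 and 1.57 in adult libraries. The ages did not overlap, and adult replicates 3 and 4 were below the floor of 3 counts. Its log2 fold change was 2.54 with a standard error of 0.97 (adjusted p = 0.182, edgeR). Adamts18 had 167 ± 105 (SD, n = 5) and 60.4 ± 56.4 (SD, n = 4) normalised counts and a log2 fold change of 1.46 (adjusted p = 0.294, edgeR), which ran from 1.04 without juvenile replicate 4 to 2.24 without adult replicate 1.

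Of the proteases of procollagen, COMP and von Willebrand factor, 3 of 4 were tested, and 0 were called by edgeR or had an unadjusted p under 0.05 in either direction. Adamts3, a procollagen N-proteinase that also activates VEGF-C in lymphatic growth, had normalised counts of 45.5 to 173 in juvenile and of 2.36 to 155 in adult libraries. Adamts7, which cuts COMP, had 128 ± 39.2 (SD, n = 5) and 168 ± 67.9 (SD, n = 4) normalised counts, and its exons overlap those of Tbc1d2b by 122 bases. Adamts12, which cuts COMP too, had 18.2 to 43.9 in juvenile and 0 to 57.6 in adult libraries. The log2 fold changes of Adamts3, Adamts7 and Adamts12 were 0.76, -0.39 and 0.88. Adamts13, which trims von Willebrand factor and is made mainly in liver, was not tested.

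Of the ADAMTS-like genes, 3 of 5 were tested, edgeR called 0 in either direction, and 1 was higher in juvenile libraries at an unadjusted p under 0.05. Adamtsl2 (ENSMUSG00000036040), which binds fibrillin and is mutated in geleophysic dysplasia, had normalised counts of 224, 216, 102, 183 and 273 in juvenile and of 53.7, 61.8, 48.1 and 114 in adult libraries. Adult replicate 4 overlapped juvenile replicate 3. Its log2 fold change was 1.52 (SE 0.43, adjusted p = 0.0697 in edgeR's quasi-likelihood test), and it passed the threshold with DESeq2. With any 1 library removed the log2 fold change was 1.36 to 1.85 (adjusted p from 0.0475 to 0.183, edgeR). Of these fits, only the one without adult replicate 4 passed. Adamtsl4, known from the fibres that hold the lens, ranged from 2.67 to 175 normalised counts in juvenile and from 3.11 to 104 in adult libraries, and Adamtsl5 had counts in 4 juvenile libraries (32.1 to 59.2 normalised counts) and 1 adult library (40.9).

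The ADAM genes without protease activity, Adam11, Adam22 and Adam23, are neuronal adhesion proteins that bind LGI ligands. Adam22 had 0 to 25.9 normalised counts in juvenile and 0 to 86.0 in adult libraries, and Adam23 0 to 31.9 and 0 to 68.9. Neither was called, and their log2 fold changes were -1.46 and -1.42 with standard errors of 1.31 and 1.39. That of Adam22 was -0.30 without adult replicate 2, and that of Adam23 was -0.86 without adult replicate 1 and -0.10 with limma voom. Of the 21 germ-line ADAM genes, which act mainly in sperm, Adam4 alone was tested, with at most 26.6 normalised counts in a library. For 19 of the 25 tested members the SD of log2 CPM was larger in adult than in juvenile libraries, beside 68.8% of all genes. Adamts9 was among the exceptions, with an SD of 0.226 in juvenile and 0.0551 in adult libraries on the log2 CPM scale.

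The inhibitors, activators and substrates of the family were drawn from a list of 73 genes, of which 58 were tested. Of these, 6 were called higher in juvenile and 4 higher in adult libraries, beside 1.99% and 1.89% of all genes. The list was chosen with earlier results of these data known, so a larger share than over all genes is no independent result. The median log2 fold change over the 58 was 0.08. At an unadjusted p under 0.05 the numbers were 14 and 10, beside 8.54% and 8.76% of all genes. Without juvenile replicates 4 and 5, edgeR called 1 gene (Pcsk6) higher in juvenile and 0 higher in adult libraries. Of all genes, 0.303% and 0.223% were called there. At an unadjusted p under 0.05 the numbers there were 11 and 10, beside 5.63% and 5.96% of all genes. Of the 8 inhibitors and clearance receptors, 5 were tested and 2 were called, both higher in juvenile libraries. Timp1, a secreted inhibitor, had normalised counts of 3723, 3853, 3789, 4333 and 3994 in juvenile and of 568, 1873, 1003 and 614 in adult libraries. The juvenile libraries were close to each other and all adult libraries lay below them. Its log2 fold change was 1.96 (SE 0.31, adjusted p = 0.00538 in edgeR's quasi-likelihood test). Timp3, the matrix-bound inhibitor known as the strongest for ADAM17 and the aggrecanases, had 880.4 ± 287 (SD, n = 5) and 814 ± 280.1 (SD, n = 4) normalised counts, with a log2 fold change of 0.11 (SE 0.28, adjusted p = 0.902 in edgeR), and its exons overlap those of Syn3 on the opposite strand. Lrp1, the endocytic receptor that clears several ADAMTS proteases, had 1794 ± 167 (SD, n = 5) and 1004 ± 275 (SD, n = 4) normalised counts and was higher in juvenile libraries (log2 fold change 0.84, SE 0.19, adjusted p = 0.0292 in edgeR). With 1 library removed, the call of Lrp1 was kept without juvenile replicate 1 or adult replicate 2 and lost in the other 7 fits (adjusted p up to 0.0806, edgeR). Timp4 and Papln had no counts.

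Of the 15 genes for maturation, trafficking and glycosylation, 14 were tested and 2 were called, both higher in juvenile libraries. Pcsk6, a proprotein convertase of the ECM, had normalised counts of 2046, 2446, 2319, 2079.5 and 2115 in juvenile and of 1105, 1271, 914 and 883 in adult libraries. No adult library came near the juvenile range, and the log2 fold change was 1.08 (SE 0.16, adjusted p = 0.00382 in edgeR's quasi-likelihood test). Rhbdf1, an iRhom needed for the maturation of ADAM17, had 517, 639, 455, 892 and 788 normalised counts in juvenile and 199.5, 338, 153 and 229 in adult libraries. The ages did not overlap, and the log2 fold change was 1.52 (SE 0.29, adjusted p = 0.0135 in edgeR). The related Rhbdf2, which is the main iRhom of blood cells, had 124 ± 52.6 (SD, n = 5) and 101 ± 108 (SD, n = 4) normalised counts and a log2 fold change of 0.30 (SE 0.67, adjusted p = 0.89 in edgeR). Adult replicate 4 held the highest value of Rhbdf2, 261.

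**Figure D4:**
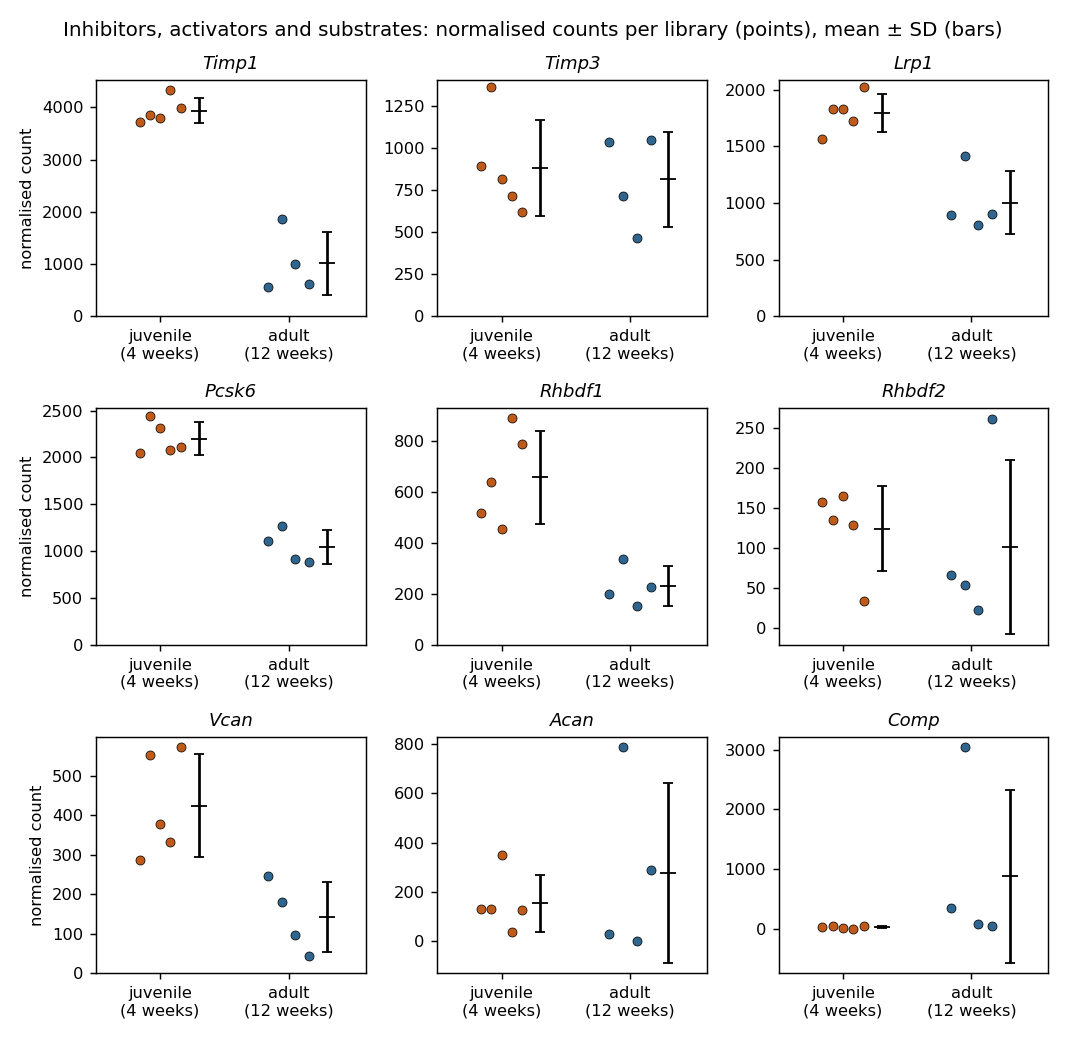
Normalised counts of 9 inhibitors, activators and substrates, one point per library, with the mean and SD beside each age (juvenile, n = 5, and adult, n = 4) and an axis of its own for each gene. Timp1, Lrp1, Pcsk6 and Rhbdf1 are higher in all juvenile libraries, Timp3 and Rhbdf2 overlap between the ages, and adult replicate 2 stands at the top for Acan (787) and Comp (3037).

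Of the 16 ADAMTS substrates, 15 were tested, 1 was called higher in juvenile and 2 higher in adult libraries. Bgn, the small proteoglycan biglycan, had 9893 ± 1552 (SD, n = 5) at 4 weeks and 5908 ± 1191 (SD, n = 4) at 12 weeks (log2 fold change 0.74, SE 0.18, adjusted p = 0.0355 in edgeR's quasi-likelihood test). Its call was lost in 6 of 9 fits with 1 library removed, those without juvenile replicates 2, 3, 4 or 5 or adult replicates 3 or 4 (adjusted p up to 0.0996, edgeR). Vcan, versican, had normalised counts of 287, 552, 378, 331 and 572 in juvenile and of 247, 181, 97.8 and 44.8 in adult libraries. The ages did not overlap, yet its log2 fold change of 1.57 (SE 0.44, adjusted p = 0.0678 in edgeR) missed the threshold. Comp, a cartilage and tendon protein, had 21.6, 50.6, 14.7, 1.18 and 43.9 normalised counts in juvenile and 353, 3037, 82.3 and 37.0 in adult libraries. Adult replicate 4 fell within the juvenile range, and the log2 fold change was -5.03 (SE 1.16, adjusted p = 0.0317 in edgeR). The call of Comp was lost without adult replicate 2, where the log2 fold change was -2.59 (adjusted p = 0.145, edgeR), without any 1 of the 5 juvenile libraries, and with limma voom. Col2a1, collagen II of cartilage, had 1925, 1305, 1543, 901 and 827 normalised counts in juvenile and 5440.4, 19566, 3647 and 3316 in adult libraries, a log2 fold change of -2.62 (SE 0.48, adjusted p = 0.0118 in edgeR). Without adult replicate 2 it was -1.69 and still past the threshold. Acan, aggrecan, had 154 ± 116 (SD, n = 5) and 277 ± 365 (SD, n = 4) normalised counts and was not called (log2 fold change -0.84, SE 1.08, adjusted p = 0.782 in edgeR). Adult replicate 2 had the highest counts of Comp, Col2a1 and Acan. The 8 chondrocyte markers, Acan and Col2a1 among them, summed to 5084 CPM there. This was the top of the adult range from 1837 CPM, against 1926 to 2579 CPM in juvenile libraries. Col2a1 alone held 18667 of the 5821596 counts of adult replicate 2 and made up most of its sum, which is thus no separate sign of cartilage. Of the 5 chondrocyte markers tested, 1 was called higher in juvenile and 1 higher in adult libraries. The part of cartilage cells in these differences was not tested.

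Of the 34 substrates and ligands of ADAM proteases, 24 were tested, 1 was called higher in juvenile and 2 higher in adult libraries. Cdh2, N-cadherin, which ADAM10 cuts, had 2270.4 ± 477 (SD, n = 5) at 4 weeks and 1235 ± 253 (SD, n = 4) at 12 weeks (log2 fold change 0.88, SE 0.20, adjusted p = 0.0317 in edgeR's quasi-likelihood test). The call of Cdh2 was kept without juvenile replicate 1 or 2 or adult replicate 1 and lost in the other 6 fits with 1 library removed (adjusted p up to 0.0842, edgeR). Csf1, the growth factor of macrophages and osteoclasts, had normalised counts of 597, 529, 463, 474 and 346 in juvenile and of 689.9, 993, 1191 and 1089.9 in adult libraries. Every adult library was above every juvenile library, with a log2 fold change of -1.04 (SE 0.22, adjusted p = 0.0187 in edgeR). It missed the threshold without juvenile replicate 3 or 4 (adjusted p up to 0.0513, edgeR). Vcam1, an adhesion molecule that ADAM17 sheds, had 99.0, 297, 54.8, 22.4 and 122 normalised counts in juvenile and 994, 589, 1185 and 994 in adult libraries. The ages did not overlap, and its log2 fold change was -2.97 (SE 0.54, adjusted p = 0.0117 in edgeR). Vcam1 is also on the list of 8 macrophage markers, of which 2 were called and both were higher in adult libraries. Areg, Ereg and Epgn, ligands of the EGF receptor that ADAM17 sheds, had no counts.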

How the data were processed

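Per the labels and the methods of the study, total RNA of each sample was converted to cDNA with the SMART-Seq v4 kit, and paired-end reads were mapped by the authors to mouse mm10 (GRCm38) with TopHat2 and Bowtie2. The submitters' processing notes name featureCounts. Its strand setting, its handling of read pairs and the annotation release are not given in the sources used here. The authors deposited raw counts of each library, which are whole numbers and were not normalised. Groups and replicate numbers came from the sample titles. Symbols, exon lengths and coding sequences came from GENCODE M21 (GRCm38), in which 37607 of the 39179 listed genes have an entry.

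Here, genes were kept by filterByExpr with default settings (minimum count 10), scaled by TMM and compared between ages with edgeR 4.0.16 (R 4.3.3), by the quasi-likelihood F test without covariates and Benjamini-Hochberg adjustment over the 13418 genes kept. Normalised counts are counts divided by the effective library size, taken as a multiple of the geometric mean of these sizes. Log2 CPM used a prior count of 2. The fits were tested on simulated counts. DESeq2 1.42.0, limma 3.58.1 voom, other scalings and filters, thinned counts, a replicate block, the 7 libraries in which Xist exceeded Y-linked genes and each library left out in turn were alternatives. Sites were searched in translated GENCODE coding sequences in place of the RefSeq proteins first planned, and the asparagine form was added after the sequences had been seen. Figures were drawn with matplotlib 3.10.9.

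Values of each library are given for members that passed the threshold, had an unadjusted p under 0.05 or did not overlap between ages, and for the 5 members with the highest level. Other tested members have means, ranges or fold changes, and untested members their highest count. Partner genes are named where they passed the threshold, with Timp1, Timp3, Rhbdf2, Acan and Vcan named whatever their p. The members and gene lists were chosen with earlier results of these data known.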

Additional observations from a re-analysis of the deposited data

Results flagged for a closer look

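In each of the 50 groups made by 25 tested members and 2 ages, the highest or lowest library was compared with its neighbours by Dixon's ratio of the gap to the whole range. The ratio passed its 95% critical value in 8 groups. For values with a normal distribution, chance flags about 1 in 20 groups, or 2.5 of 50. The ratio was taken on normalised counts, for which that rate need not hold, since some groups have libraries without counts on the gene. An excess of flagged groups over chance is therefore not shown.

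Adult replicate 2 held 4 of the 8 values. Its normalised count of Adamts1 was 158 against 85.7 to 96.3 in the remaining adult libraries (ratio 0.854). It was the only adult library with counts on Adamtsl5 (40.9, ratio 1) and Adam4 (19.9, ratio 1), and its normalised count of Adamts12 was 57.6 against 0 to 6.29 in the others (ratio 0.891).

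In adult replicate 4, Adam28 had 12.6 normalised counts against 3.88 to 5.24 in the remaining adult libraries (ratio 0.844). In juvenile replicate 1, Adamts5 had 693 normalised counts against 309.9 to 395 in the remaining juvenile libraries (ratio 0.778), and Adamtsl4 had 175 against 2.67 to 51.8 (ratio 0.715). In juvenile replicate 4, Adam8 had 61.3 normalised counts against 0 to 16.3 in the others (ratio 0.734).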

How the results depend on the processing

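The 2 members called higher in juvenile libraries became 7 with DESeq2 (Adam12, Adamts1, Adamts4, Adamts9, Adamts10, Adamts17 and Adamtsl2), 4 with at least 10 counts in every library, 1 with limma voom (Adam12, with Adamts9 at an adjusted p of 0.0525), 0 in the 7 libraries and 0 to 3 with each library left out. No member was called higher in adult libraries under any of these settings. Partner genes called higher in juvenile libraries numbered 6, 1 in the 7 libraries and 3 to 7 with a library left out. Those higher in adult libraries numbered 4, 0 and 2 to 6. The 520 calls over all genes became 1122 with DESeq2, 73 in the 7 libraries and 262 to 651 with a library left out, 262 without juvenile replicate 5.

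Same-numbered libraries of the ages had correlations of their deviations from the group means of -0.0318 to 0.0303. For juvenile replicates 1, 3 and 4 the adult library with the highest correlation had the same number. For juvenile replicate 2 it was adult replicate 1. With so few libraries, these values cannot settle whether the numbers pair them. With the replicate block, in which juvenile replicate 5 has no adult partner, calls fell to 0 members, to 2 and 1 partner genes and to 89 genes in all.

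Signs turned for 4 members that were not called. Adam8 was 0.51 with the block. Adamtsl4 was -0.074 with voom and -0.74 to 0.81 with a library left out, Adamts5 0.083 in the 7 libraries and -0.32 to 0.17, and Adam17 -0.011 with voom, -0.026 with the block, -0.066 in the 7 libraries and -0.20 to 0.35. The causes were not tested. Of the tested members, 11 had under 10 counts in some library.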
